A study of Mus musculus with 8 samples.

Results

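Cadherins and the genes of the epithelial-mesenchymal switch were followed in injured mouse kidney. The set held 10 genes, taken by symbol from a table of 34450 genes, and all 10 were found. They were the cadherin genes Cdh1, Cdh2, Cdh6 and Cdh16, the epithelial adhesion gene Epcam, the intermediate filament gene Vim, and the repressor genes Snai1, Snai2, Zeb1 and Zeb2. Kidneys of C57BL/6J mice aged 8 weeks were taken on day 3 after an ischaemia-reperfusion injury (IRI), in which renal blood flow is stopped and restored. The group HxIRI (4 libraries, numbered 1 to 4, called hypoxia here) was kept in low oxygen before the injury. The group IRI (4 libraries, numbered 5 to 8, called normoxia here) breathed normal oxygen and then had the same injury. All 8 libraries were therefore from injured kidneys, and no uninjured kidney was analysed here. Whether every library stands for its own mouse is not in the labels, so p-values reflect the spread among these 8 libraries alone, which may be technical.

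Cadherins are calcium-dependent adhesion proteins that join neighbouring cells and are anchored inside the cell by catenins. In the kidney, E-cadherin (Cdh1) is known mainly from the distal nephron and collecting duct, N-cadherin (Cdh2) and K-cadherin (Cdh6) from the proximal tubule, and Ksp-cadherin (Cdh16) from most tubule segments. In an epithelial-mesenchymal switch, zinc finger repressors of the Snail and ZEB families silence epithelial adhesion genes, while filaments of vimentin (Vim) appear. Injured tubule cells are known to make vimentin for a time during repair, and fibroblasts, endothelial cells, podocytes and leukocytes make it as well.

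Levels were given as FPKM, fragments per transcript length and sequencing depth, as the authors deposited them. Ribosomal transcripts took 21.5% to 67.4% of the estimated fragments in the hypoxia libraries and 13.5% to 72.5% in the normoxia libraries, and FPKM of all other genes are scaled down where that share is high. Hypoxia libraries lay in pairs, 1 with 2 (Spearman correlation 0.924 across genes) and 3 with 4 (0.921), against 0.833 to 0.853 across the pairs, so the 4 may not be independent of each other. The pairs also differed in ribosomal share, 40.95% and 21.5% in libraries 1 and 2 against 66.3% and 67.4% in 3 and 4. The source of the pairing was not tested. Normoxia library 5 was the least like the rest (mean Spearman correlation 0.633, against 0.767 to 0.832 for the other 7 libraries). Markers of the proximal tubule were present in all 8 libraries, none of the 10 at 0 in any, with summed FPKM of 652.1 to 1648 after hypoxia and 160.9 to 819.2 after normoxia.

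All 10 genes passed the minimum mean of 0.5 FPKM, and each was tested among 14444 genes with limma on log2(FPKM + 0.5), a scale that understates differences of low genes. None of the 10 genes passed an adjusted p of 0.05 as deposited, against a background of 0.907% of all tested genes in either direction (44 genes or 0.305% higher after hypoxia, 87 genes or 0.602% lower). At an unadjusted p under 0.05, 2 of the 10 were lower after hypoxia, Vim and Cdh6, and none was higher, where 6.84% of all tested genes were lower and 2.52% higher (9.36% in all). The groups did not overlap for 2 of the 10, Vim and Zeb1, both lower after hypoxia, where 3.06% of all tested genes were lower without overlap, 1.86% higher and 4.92% either. Of the differences 8 were below 0 and 2 above it, with a median of -0.49, beside a median of -0.14 over all tested genes. Most tested genes were also below 0 as deposited, 8815 against 5629 above it. TMM scaling, which sets libraries to a common level for most genes, moved the median of all genes by 0.11 and gave 127 genes higher and 164 lower. Of the genes called, 43.6% were then higher, against 33.6% as deposited. The plot of FPKM by library shows each of the 10 genes.

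**Figure D1:**
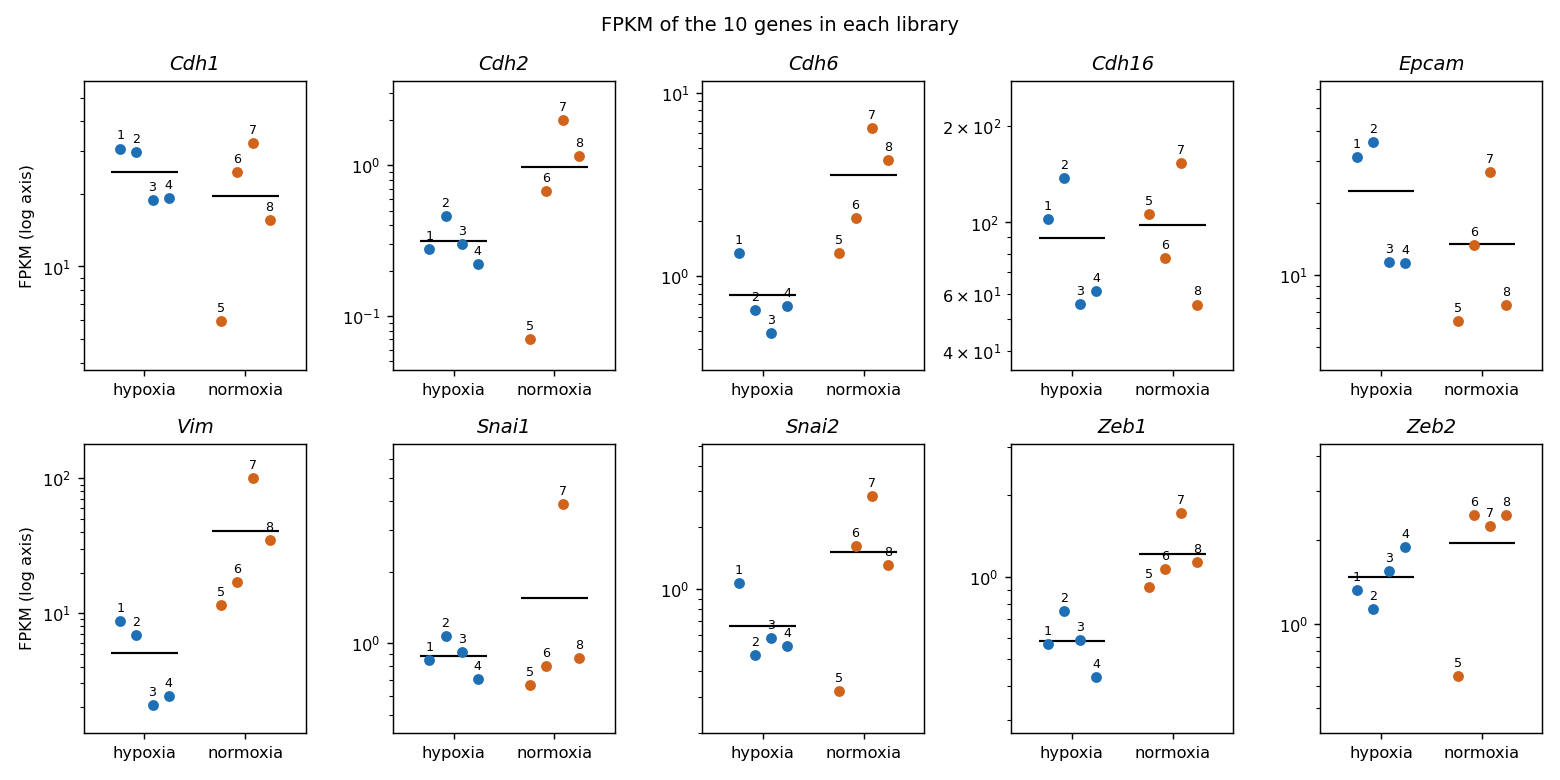
FPKM of each of the 10 genes on a log axis, with 1 point per library labelled by its number, hypoxia libraries in blue and normoxia libraries in orange, and the group mean as a line. The 4 hypoxia libraries lie below the 4 normoxia libraries for Vim and for Zeb1, and normoxia library 7 is highest of all 8 for 8 of the 10 genes other than Epcam and Zeb2.

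Vim, which encodes the mesenchymal intermediate filament vimentin, showed the widest difference of the 10 genes. It stood at 8.73, 6.84, 2.06 and 2.42 FPKM in hypoxia libraries 1 to 4 and at 11.5, 17.0, 100.5 and 34.7 FPKM in normoxia libraries 5 to 8. Every hypoxia library was below every normoxia library, although hypoxia library 1 and normoxia library 5 lay close to each other. The means were 5.01 ± 3.30 and 40.9 ± 40.9 FPKM (SD, n = 4 each), 8.16 times higher after normoxia. On the log2 scale the difference was -2.63 ± 0.74 (SE), and it missed the threshold as deposited (limma adjusted p = 0.0875). With TMM scaling Vim fell by 2.51 ± 0.50 (SE) on the log2 scale and passed (limma adjusted p = 0.0394, background 1.14% lower), and without normoxia library 5 under the same scaling the difference was -2.79 ± 0.45 (SE, limma adjusted p = 0.0139, background 3.97% lower). Vim also passed with a minimum mean of 2 FPKM (background 0.933% lower), with quantile normalization (2.42%), with each library's trend over transcript length removed (1.74%) and without normoxia library 6 (1.43%). It did not pass without normoxia library 7, the highest library (-2.04, limma adjusted p = 0.374 as deposited, and -2.18, limma adjusted p = 0.133 with TMM scaling). With hypoxia libraries 1 and 2 averaged, and 3 and 4 averaged, it did not pass either (limma adjusted p = 0.566, background 0.0346% lower). Over the 20 alternatives Vim passed in 6 and failed in 14. The failures included scaling to the protein-coding share (limma adjusted p = 0.0705), no filter on mean FPKM (0.487) and a pseudocount of 1 (0.111). Omission of hypoxia library 3 (0.251), hypoxia library 4 (0.215) or normoxia library 8 (0.0687) were failures as well. In whole-kidney RNA, fewer cells of a type and less RNA per cell cannot be told apart. Vim (ENSMUSG00000026728) lies on chromosome 2 from 13573927 to 13582826 on the plus strand of GRCm38, in the GENCODE M21 annotation.

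Cdh6, the cadherin of the proximal tubule and of its embryonic precursors, was next. It stood at 1.34, 0.65, 0.49 and 0.69 FPKM after hypoxia and at 1.34, 2.08, 6.43 and 4.30 FPKM after normoxia. Only hypoxia library 1 reached the lowest normoxia library, number 5, and the other 3 hypoxia libraries were below all normoxia libraries. The means of 0.793 ± 0.375 and 3.54 ± 2.30 FPKM (SD, n = 4 each) were 4.46 times apart. On the log2 scale the difference was -1.50 ± 0.48 (SE, limma adjusted p = 0.163). With TMM scaling the groups no longer touched (difference -1.38, limma adjusted p = 0.0716), where 6.31% of all tested genes were lower without overlap. Over the 20 alternatives Cdh6 passed in 2 and failed in 18. It passed with TMM scaling without normoxia library 5 (-1.58, limma adjusted p = 0.0217, background 3.97% lower). The other pass was with the trend over length removed (-1.47, limma adjusted p = 0.039, background 1.74% lower). It did not pass without normoxia library 7 (limma adjusted p = 0.472 as deposited and 0.217 with TMM scaling) or with hypoxia libraries averaged in pairs (0.921). Cdh6 (ENSMUSG00000039385) lies on chromosome 15 from 13028701 to 13173675 on the minus strand of GRCm38.

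Cdh2, which encodes N-cadherin, was the lowest of the 10 genes in mean level. It stood at 0.28, 0.46, 0.30 and 0.22 FPKM after hypoxia and at 0.07, 0.67, 2.01 and 1.15 FPKM after normoxia. Normoxia library 5 was the lowest of all 8, on roughly 8 fragments, and the other 3 normoxia libraries were above all hypoxia libraries. The groups therefore overlapped through a single library, and the difference of -0.67 ± 0.43 (SE) on the log2 scale did not pass (limma adjusted p = 0.768), and it was -1.06 without library 5. With TMM scaling without normoxia library 5 it was -0.88 ± 0.24 (SE, limma adjusted p = 0.0592).

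The epithelial adhesion genes did not share the pattern of Vim. Cdh16, the kidney-specific cadherin and the most abundant of the 10 genes per length, stood at 102.5, 137.0, 56.0 and 61.4 FPKM after hypoxia and at 105.9, 77.6, 152.8 and 55.6 FPKM after normoxia. The groups lay over each other, with means of 89.2 ± 38.0 and 98.0 ± 41.9 FPKM (SD, n = 4 each). The difference was -0.13 ± 0.79 (SE) on the log2 scale as deposited and 0.0081 ± 0.40 (SE) with TMM scaling, so that its sign turned (limma adjusted p = 0.999 and 0.995). After TMM scaling the 4 hypoxia libraries lay between 79.4 and 101.9, and the normoxia libraries between 68.5 and 134.3, library 5 being the highest.

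Cdh1, which encodes E-cadherin, stood at 30.8, 29.8, 18.9 and 19.2 FPKM after hypoxia and at 5.95, 24.5, 32.6 and 15.5 FPKM after normoxia. The groups overlapped, and normoxia library 5 was far below the rest. The means were 24.7 ± 6.51 and 19.6 ± 11.5 FPKM (SD, n = 4 each), with a difference of 0.52 ± 0.72 (SE) on the log2 scale (limma adjusted p = 0.985). Without normoxia library 5 the difference as deposited was 0.053 (limma adjusted p = 0.996), and without normoxia library 7 it was 0.84 (limma adjusted p = 0.892). After TMM scaling hypoxia libraries were between 22.2 and 26.8, and normoxia libraries 6, 7 and 8 between 17.4 and 24.1.

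Epcam, the epithelial cell adhesion molecule, had the highest positive difference of the 10 genes. It stood at 31.1, 35.9, 11.4 and 11.2 FPKM after hypoxia and at 6.42, 13.3, 26.8 and 7.50 FPKM after normoxia. Hypoxia libraries 1 and 2 were above all normoxia libraries, while 3 and 4 lay among them. The difference of 0.73 ± 0.72 (SE) on the log2 scale did not pass (limma adjusted p = 0.92), and it was 0.45 without hypoxia library 2, 0.47 without normoxia library 5 and 1.13 without normoxia library 7. After TMM scaling the groups no longer overlapped, with hypoxia libraries between 15.5 and 26.7 and normoxia libraries between 8.15 and 14.3, where 6.2% of all tested genes were higher after hypoxia without overlap. The difference was then 0.87 ± 0.35 (SE, limma adjusted p = 0.261). Markers of the distal nephron differed in the same direction, and so did those of the proximal tubule. Of 10 proximal tubule markers 9 had differences above 0 (median 1.16) and 0 passed (2 with unadjusted p under 0.05), with sums that overlapped. Those of the distal convoluted and connecting tubule (5, all with differences above 0, 2 passing) summed to 57.2 to 95.1 FPKM after hypoxia and 14.0 to 32.8 after normoxia, without overlap. Of 6 thick ascending limb markers, all with differences above 0, 1 passed. Of 8 collecting duct markers 7 had differences above 0 and 0 passed (3 with unadjusted p under 0.05). As deposited, sums overlapped in both lists, and the background was 0.305% higher. After TMM scaling the thick ascending limb sums did not overlap (588.4 to 1339 after hypoxia, 193.8 to 524.8 after normoxia), and 3 of 6 markers passed (background 0.879% higher). Sums of the collecting duct and proximal tubule still overlapped. The part of these segments in the values of Epcam and Cdh1 was not tested. Epcam (ENSMUSG00000045394) lies on chromosome 17 from 87635979 to 87651129 on the plus strand of GRCm38.

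The 4 repressor genes were low in every library, between 0.32 and 3.87 FPKM, and none passed. Zeb1, a zinc finger homeobox repressor of E-cadherin, stood at 0.57, 0.75, 0.59 and 0.43 FPKM after hypoxia and at 0.92, 1.07, 1.71 and 1.14 FPKM after normoxia. Its groups did not overlap as deposited or after TMM scaling, and the difference of -0.64 ± 0.39 (SE) on the log2 scale did not pass (limma adjusted p = 0.724). With TMM scaling it was -0.55 ± 0.21 (SE, limma adjusted p = 0.247). Zeb2, its paralog, stood at 1.32, 1.13, 1.55 and 1.88 FPKM after hypoxia and at 0.65, 2.46, 2.24 and 2.46 FPKM after normoxia. Normoxia libraries 6, 7 and 8 were above all hypoxia libraries, and library 5 was the lowest of all 8. The difference was -0.23 ± 0.46 (SE, limma adjusted p = 0.999), and it was -0.56 without normoxia library 5 and -0.11 without normoxia library 6 or 8. The opposite-strand gene Zeb2os shares 653 exon bases with Zeb2 in GENCODE M21 and was at 0.39 to 1.63 FPKM after hypoxia and 0.50 to 1.71 FPKM after normoxia. Whether strand was used in counting is not given in the sources used here, so reads of Zeb2 and Zeb2os may not be fully separated, nor those of Zeb1 and its opposite-strand neighbour Gm10125 (198 shared bases, at most 0.26 FPKM).

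Snai2, the repressor Slug, stood at 1.07, 0.48, 0.58 and 0.53 FPKM after hypoxia and at 0.32, 1.63, 2.84 and 1.32 FPKM after normoxia. As deposited, normoxia libraries 6, 7 and 8 were above all hypoxia libraries, as for Cdh2 and Zeb2, and library 5 was again the lowest. After TMM scaling libraries 6, 7 and 8 stayed above all hypoxia libraries for Snai2 and Cdh2 but not for Zeb2. The difference of Snai2 as deposited, -0.66 ± 0.45 (SE) on the log2 scale, did not pass (limma adjusted p = 0.797). It was -1.04 without normoxia library 5 and -0.36 without normoxia library 7, and it was -0.80 ± 0.22 (SE, limma adjusted p = 0.0593) with TMM scaling without library 5. Snai1, the repressor Snail, stood at 0.85, 1.07, 0.92 and 0.71 FPKM after hypoxia and at 0.67, 0.80, 3.87 and 0.87 FPKM after normoxia. A single library, normoxia 7, lay above the rest, and without it the difference turned from -0.33 to 0.11 (limma adjusted p = 0.983 and 0.967). Snai1 and Snai2 rested on few reads, roughly 9 to 91 fragments per library.

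Snail and ZEB proteins are known to bind the E-box CAGGTG in promoters of epithelial genes. That motif was searched on both strands (CAGGTG or CACCTG, whose letters let no match overlap another) in the 250 bases before the RefSeq start of the members that matched the promoter table (GRCm38.p6). Of the 10 genes 5 matched: Cdh6, Epcam, Snai1, Vim and Zeb2. Of these windows 3 are printed, 5′ to 3′ on the gene's strand, to show an epithelial gene with the motif, a repressor gene with it and a cadherin gene without it. They are those of Epcam (chr17:87635729-87635978, plus strand), Snai1 (chr2:167537945-167538194, plus strand) and Cdh6 (chr15:13173676-13173925, minus strand), with the E-box in capitals.
Epcam: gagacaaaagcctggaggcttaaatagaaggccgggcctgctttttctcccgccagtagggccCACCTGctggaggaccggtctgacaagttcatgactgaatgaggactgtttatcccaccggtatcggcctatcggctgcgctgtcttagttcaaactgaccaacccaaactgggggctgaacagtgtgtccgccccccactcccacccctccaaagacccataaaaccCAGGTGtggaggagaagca
Snai1: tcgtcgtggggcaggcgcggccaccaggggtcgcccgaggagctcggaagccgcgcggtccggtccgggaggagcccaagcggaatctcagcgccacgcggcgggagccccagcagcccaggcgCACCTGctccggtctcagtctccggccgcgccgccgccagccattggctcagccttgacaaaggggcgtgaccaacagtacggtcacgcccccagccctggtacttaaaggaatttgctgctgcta
Cdh6: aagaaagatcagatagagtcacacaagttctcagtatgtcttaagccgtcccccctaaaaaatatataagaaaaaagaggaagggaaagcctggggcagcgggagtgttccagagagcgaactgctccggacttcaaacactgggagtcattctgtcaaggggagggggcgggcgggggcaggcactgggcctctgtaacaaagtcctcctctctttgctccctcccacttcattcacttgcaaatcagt
Epcam held 2 matches, starting 187 and 19 bases before the start. Snai1 held 1 match, starting 126 bases before it, and the windows of Cdh6, Vim and Zeb2 (4 windows) held none. The Vim window, and the Zeb2 windows other than chr2:45117443-45117692, lie inside the gene as annotated in GENCODE M21. Their lack of a match therefore does not describe the bases upstream of the annotated gene. Among all 32851 windows of the same length 17.2% held at least 1 match and 2.06% at least 2. A match describes the letters and not a binding site.

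**Figure D2:**
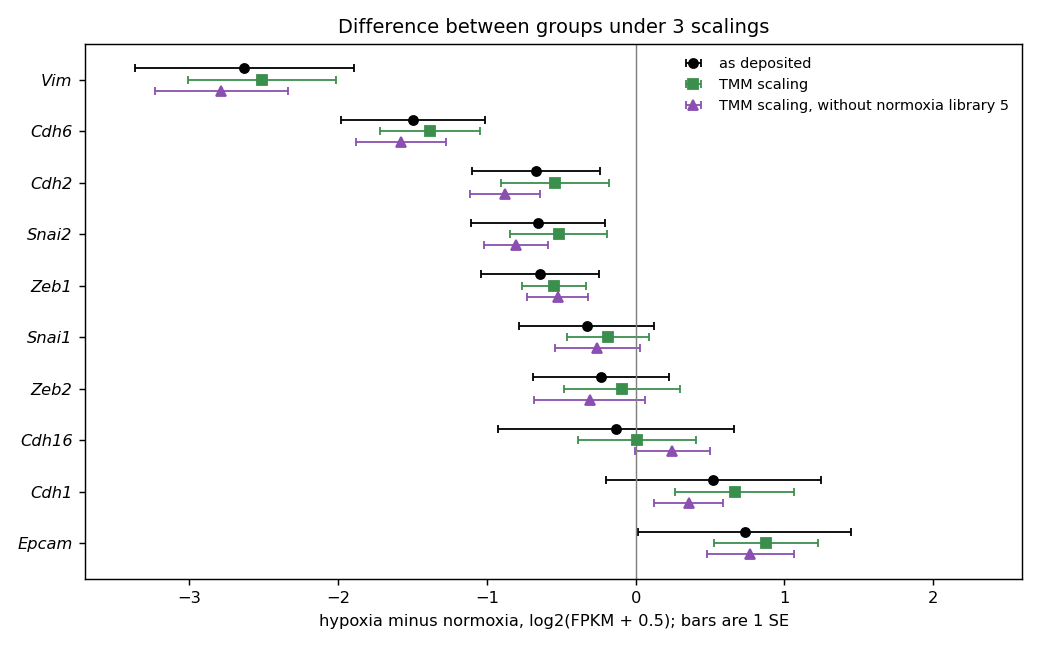
Difference between hypoxia and normoxia (log2 scale, points, with bars of 1 SE) for each of the 10 genes as deposited (black), with TMM scaling (green) and with TMM scaling without normoxia library 5 (purple). Vim and Cdh6 lie farthest below 0 under all 3 settings, and Cdh16 lies on both sides of 0.

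Ratios between genes were also taken within each library, where the scaling of the library cancels except for the part of the added 0.5, which weighs most on genes near or below 0.5 FPKM. The log2 ratio of Vim to Cdh16, each as FPKM + 0.5, was -3.48, -4.23, -4.46 and -4.40 in hypoxia libraries 1 to 4 and -3.15, -2.16, -0.60 and -0.67 in normoxia libraries 5 to 8. Vim was below Cdh16 in every library, and the groups did not overlap, with a mean difference of -2.50 (-2.66 without the added 0.5, also without overlap). The log2 ratio of Vim to Cdh1 was between -2.92 and -1.76 after hypoxia and between -0.52 and 1.61 after normoxia, above 0 in 3 of the 4 normoxia libraries. Against Epcam the ratio of Vim was between -2.31 and -1.78 after hypoxia and between 0.34 and 2.14 after normoxia. Vim was thus less abundant per length than Epcam in all 4 hypoxia libraries and more abundant in all 4 normoxia libraries.

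The log2 ratio of Cdh1 to Cdh2, the E- to N-cadherin ratio, was 5.33, 4.98, 4.60 and 4.77 after hypoxia and 3.50, 4.42, 3.72 and 3.28 after normoxia. E-cadherin transcripts were the more abundant per length in all 8 libraries, and the groups did not overlap on this scale, with a mean difference of 1.19. Cdh2 lay below the added 0.5 in 5 libraries, and the separation did not hold without it: the ratio was then 6.78, 6.02, 5.98 and 6.45 after hypoxia and 6.41, 5.19, 4.02 and 3.75 after normoxia (mean difference 1.46), with normoxia library 5 among the hypoxia libraries. The log2 ratio of Cdh6 to Cdh16 overlapped between the groups, at -5.81, -6.90, -5.83 and -5.70 after hypoxia and -5.85, -4.92, -4.47 and -3.55 after normoxia. Normoxia library 5 alone lay among the hypoxia libraries, and the mean difference of -1.36 was -1.09 with an added 1 and -1.87 with none. The ratio of Epcam to Cdh16 was between -2.40 and -1.70 after hypoxia and between -3.94 and -2.49 after normoxia. That of Cdh1 to Cdh16 overlapped, at -2.18 to -1.54 after hypoxia and -4.04 to -1.64 after normoxia. The ratios were not tested. Those of Vim to Cdh1, Vim to Epcam, Epcam to Cdh16 and Cdh1 to Cdh16, and all ratios without the added 0.5, were chosen after the values were seen.

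**Figure D3:**
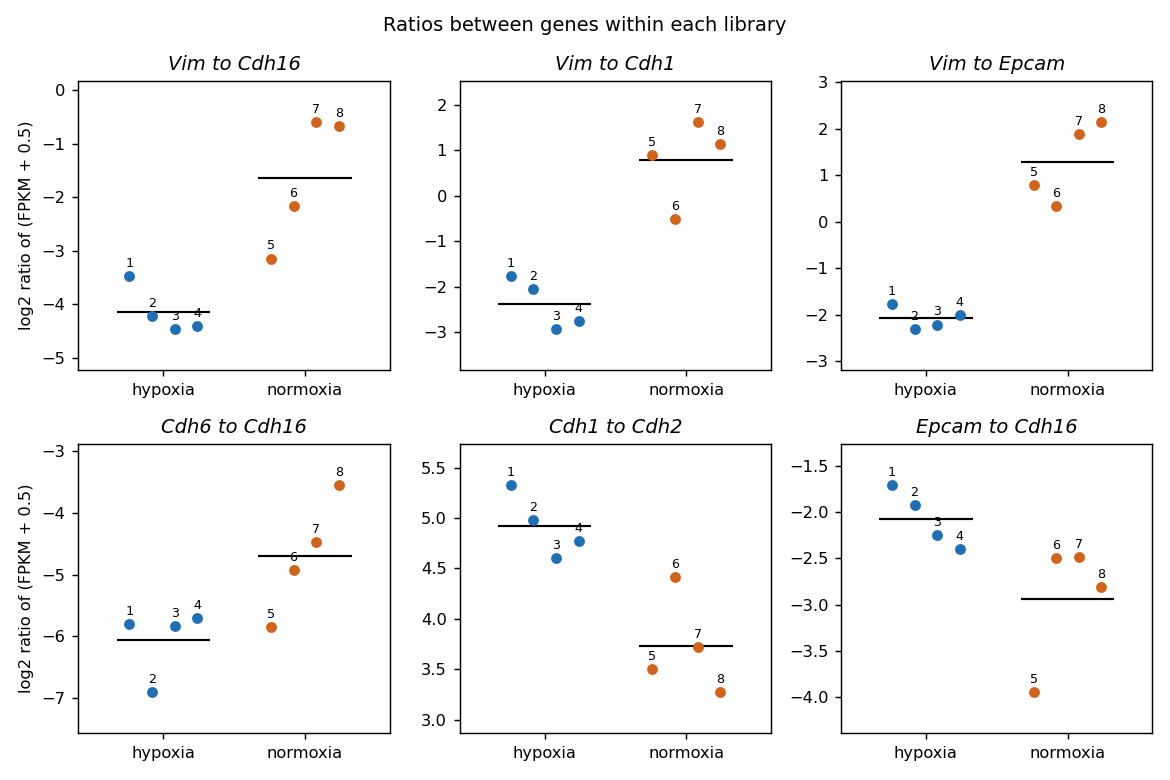
Log2 ratio of (FPKM + 0.5) between pairs of the genes in each library, with 1 point per library labelled by its number and the group mean as a line. On this scale the groups are apart for the ratios shown except Cdh6 to Cdh16, where normoxia library 5 (-5.85) lies among the hypoxia libraries; without the added 0.5 those of Cdh1 to Cdh2 also overlap.

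Ordered by mean FPKM over the 8 libraries, the genes ran from Cdh16 (93.6) through Vim (23.0), Cdh1 (22.1) and Epcam (18.0) to Cdh6 (2.17), Zeb2 (1.71), Snai1 (1.22), Snai2 (1.10), Zeb1 (0.898) and Cdh2 (0.645). Cdh16 was above Vim, and Epcam above Cdh6, in 8 of 8 libraries. Other neighbours in the order changed places between libraries: Vim was above Cdh1 in 3 of 8, Cdh1 above Epcam in 5 of 8, Cdh6 above Zeb2 in 4 of 8, Snai1 above Snai2 in 5 of 8 and Zeb1 above Cdh2 in 6 of 8.

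Likeness to other genes was measured as the root-mean-square difference of centred log2(FPKM + 0.5) over the 8 libraries, smaller values being more alike. The genes closest to Vim were Ccna2 (0.264) and Plk1 (0.29). Cdh6 was closest to Hells (0.143) and E2f8 (0.145), and Cdh16 to Ecd (0.0808). For Cdh1 they were Shoc2 (0.117) and Atxn7 (0.124), and for Epcam Pdhb (0.0982) and Atp5f1 (0.116). The closest genes of Cdh2 were Col8a1 (0.112) and Tlr4 (0.115), those of Snai1 Dact3 (0.178) and Vegfd (0.197), and those of Snai2 Eri2 (0.0765) and Psip1 (0.127). Dsel (0.123) and Ablim3 (0.126) were closest to Zeb1, and Trio (0.102) and Mast4 (0.118) to Zeb2. Genes that share a library's depth and ribosomal share resemble each other on this measure. Ccna2 passed as deposited (log2 difference -2.77, limma adjusted p = 0.0228), and the other genes named here for their likeness did not.

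Junction genes around the cadherins showed no call as deposited. Of 25 other cadherin genes 20 were in the table and 9 were tested; 0 passed, 1 had an unadjusted p under 0.05, and their median difference was -0.28 on the log2 scale. The smallest p-values among them were those of Cdh3, P-cadherin (1.23 ± 0.50 and 3.81 ± 2.70 FPKM, SD, n = 4 each, log2 difference -1.09, limma adjusted p = 0.526), and Cdh11, the cadherin of mesenchymal cells (log2 difference -0.89, limma adjusted p = 0.635). Of 9 tested genes in the catenin and nectin list, 0 passed (median 0.025, 1 with unadjusted p under 0.05). Nectin2 (-1.43, limma adjusted p = 0.489) and the actin-linking vinculin gene Vcl (-1.10, limma adjusted p = 0.598) had the smallest p-values. None of 6 desmosome genes passed (median -0.18, 0 with unadjusted p under 0.05), among them Pkp4 (0.97, limma adjusted p = 0.847) and Dsp (0.34, limma adjusted p = 0.994). Tight junction and polarity genes lay close to the median of all genes, with 0 of 14 passing (median 0.055, 0 with unadjusted p under 0.05). Patj, a polarity scaffold gene, was among the smallest p-values there (0.37, limma adjusted p = 0.982). The 7 tested partners and proteases of EpCAM likewise held 0 calls (median -0.36, 0 with unadjusted p under 0.05), with the claudin gene Cldn7 (-0.88, limma adjusted p = 0.82) first.

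Transcription factors of either state held no call as deposited. Of 11 factors of the epithelial program 9 were tested and 0 passed (median 0.27, 1 with unadjusted p under 0.05). Klf5 (-1.14, limma adjusted p = 0.319) and Ovol1 (0.74, limma adjusted p = 0.729), a repressor of ZEB genes, had the smallest p-values. Of 9 other factors of the switch 4 had enough expression to be tested and 0 passed (median -0.27, 0 with unadjusted p under 0.05), with Sox4 (-1.10, limma adjusted p = 0.579) and Tcf3 (-0.36, limma adjusted p = 0.989) first. With TMM scaling without normoxia library 5, 2 epithelial factors were higher after hypoxia, among them Ovol1 (1.13, limma adjusted p = 0.0337, background 4.12% higher), and Sox4 was lower (-1.15, limma adjusted p = 0.0222). Twist1, a bHLH factor of mesenchymal cells, was listed at 0 in 4 of 8 libraries and was at most 0.86 FPKM.

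Filament and matrix genes lay with Vim. All 7 tested intermediate filament genes were lower in mean after hypoxia as deposited, with a median of -1.67 against -0.14 for all tested genes. With TMM scaling without normoxia library 5 their median was -1.15, and 2 of the 7 were called lower (background 3.97%). Krt7 then turned from -0.61 to 0.49 (limma adjusted p = 0.307). None passed as deposited, 6 had an unadjusted p under 0.05 (6.84% of all tested genes were lower at that p) and 3 had groups that did not overlap (3.06% of all, lower). Nes, the filament gene nestin, was between 1.89 and 2.89 FPKM after hypoxia and between 7.17 and 16.3 FPKM after normoxia (log2 difference -1.96 ± 0.56 SE, limma adjusted p = 0.0925). With TMM scaling it passed (-1.83, limma adjusted p = 0.0321), where 1.14% of all tested genes were lower, but not without normoxia library 7 (limma adjusted p = 0.246 as deposited and 0.0904 with TMM scaling). Plec, the linker plectin, differed by -1.67 (limma adjusted p = 0.193). The list also held the epithelial keratin genes Krt8 (27.5 ± 21.8 and 112.6 ± 72.3 FPKM, SD, n = 4 each) and Krt18 (10.4 ± 5.87 and 61.2 ± 50.4 FPKM). Krt8 differed by -2.14 with groups that overlapped (limma adjusted p = 0.32), and Krt18 by -2.27 without overlap (limma adjusted p = 0.202). Lower means were thus not limited to mesenchymal filaments, but neither keratin gene passed.

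Of 18 tested mesenchymal and matrix genes 2 fell after hypoxia as deposited and 0 rose, against a background of 0.602% lower, and all 18 had differences below 0 (median -1.73). S100a4, a calcium-binding protein gene of fibroblasts and leukocytes, stood at 5.54, 5.46, 0.82 and 1.01 FPKM after hypoxia and at 32.7, 12.2, 50.1 and 13.3 FPKM after normoxia (-3.0 ± 0.69 SE, limma adjusted p = 0.0327). The groups did not overlap. Hypoxia libraries 1 and 2, which had the lower ribosomal shares of their group, were the higher pair, as for Vim, Cdh16, Cdh1 and Epcam. The count of this list was 7 with TMM scaling (background 1.14%), 14 with TMM scaling without normoxia library 5 (background 3.97%), 0 of 17 without normoxia library 7 (background 0.0284%) and 0 of 18 with hypoxia libraries averaged in pairs (background 0.0346%).

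**Figure D4:**
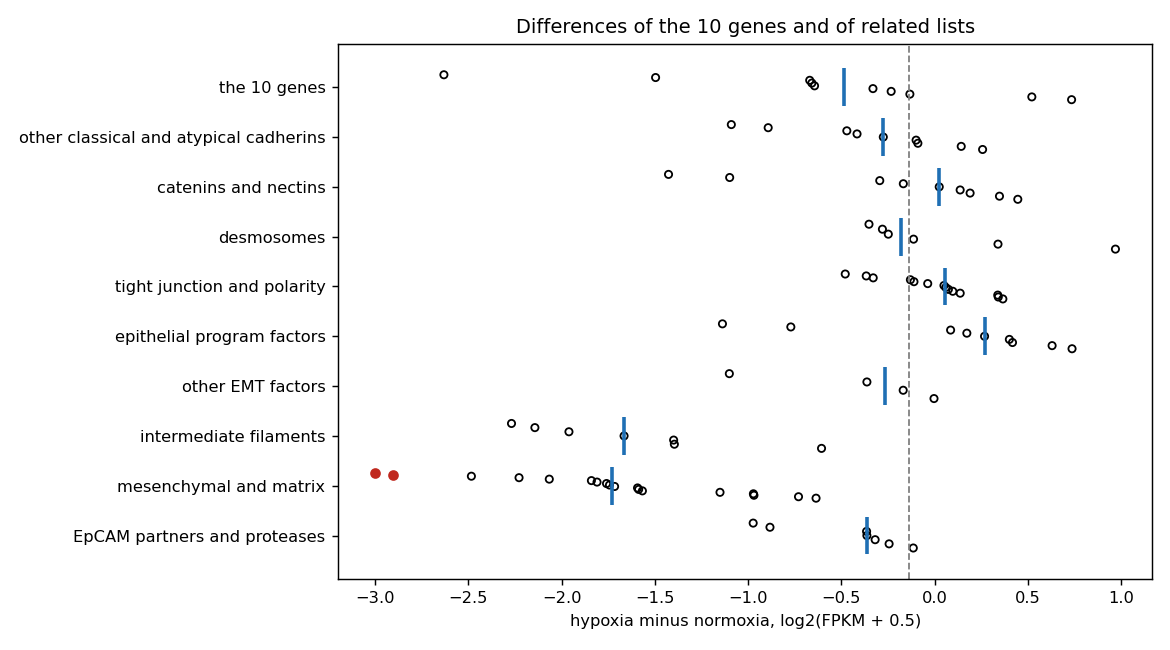
Log2 difference between hypoxia and normoxia of each tested gene in the 10-gene set and in 9 related lists, as deposited, with genes passing the adjusted p of 0.05 filled red, list medians as blue bars and the median of all tested genes as a dashed line at -0.14. The intermediate filament list (median -1.67) and the mesenchymal and matrix list (median -1.73) lie left of the line, and the junction lists lie around it.

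Markers of cells other than tubule cells that make vimentin were measured in the same libraries. Summed FPKM of 10 macrophage and monocyte markers were 20.2 to 100.7 after hypoxia and 126.2 to 791.9 after normoxia, without overlap. The 8 fibroblast and pericyte markers summed to 21.8 to 46.4 after hypoxia and 54.7 to 248.5 after normoxia, again without overlap, and 0 of the 8 passed (4 with unadjusted p under 0.05). Of these, 3 collagen genes that are also in the matrix list summed to 10.96 to 31.65 and 46.5 to 207.1, while the other 5 markers overlapped, at 10.8 to 26.1 and 8.19 to 41.4. Pdgfra (log2 difference 0.15, limma adjusted p = 0.999) and Dcn (0.34, limma adjusted p = 0.999) had differences above 0. Smooth muscle markers (4) summed to 15.8 to 40.1 and 46.3 to 178.4, without overlap. Endothelial markers (8) summed to 38.4 to 96.1 and 28.0 to 90.6, and podocyte markers (5) to 26.0 to 43.7 and 20.3 to 55.8, both with overlap. Of these 5 lists, the macrophage marker Fcgr1 alone was listed at 0 in any library. Lymphocyte markers (8) summed to at most 0.86 after hypoxia and 6.31 after normoxia, and each of them was listed at 0 in some library. The 3 neutrophil markers in the table summed to 0.06 to 3.18 and 2.58 to 68.6. Markers of injured tubule cells (6) were at 33.1 to 239.9 after hypoxia and 331.8 to 1345 after normoxia. Normoxia library 5 had the lowest Vim and fibroblast sum of its group. Its macrophage sum was the highest, mostly from C1qa (249.5 FPKM) and C1qb (384.1 FPKM), while Itgam and Ccr2 were lowest of the group there. Its injured tubule sum was also the highest, mostly from Clu (1048 FPKM) and Lcn2 (206.6 FPKM). The other injured tubule markers, Havcr1, Krt20, Sox9 and Vcam1, were lowest of the group in library 5, as Vim was. The part of these cells in the values of Vim, Cdh6, the repressor genes and the filament and matrix lists was not tested.

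**Figure D5:**
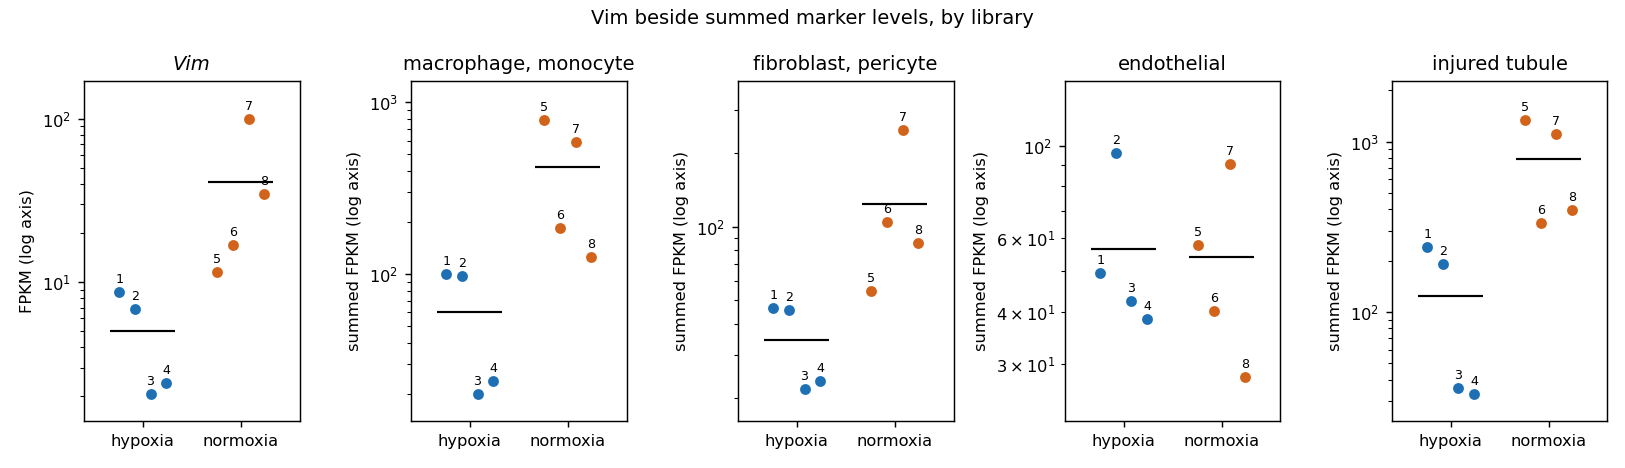
FPKM of Vim and summed FPKM of marker lists for macrophages and monocytes, fibroblasts and pericytes, endothelial cells and injured tubule cells, on log axes, with 1 point per library labelled by its number and the group mean as a line. Hypoxia libraries are below normoxia libraries in every panel except that of endothelial cells, where sums of 38.4 to 96.1 and 28.0 to 90.6 overlap.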

How the data were processed

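Poly(A) RNA was sequenced in 8 kidney libraries made with a TruSeq stranded mRNA kit, per the labels' protocols. The submitters' processing notes list HISAT2, StringTie and edgeR, without roles or versions. Build and annotation: not given in the sources used here. Per the file headers, the authors deposited FPKM per gene and library, in 2 decimals, and 6 further columns were empty. Read counts were not used here. From the steps between low FPKM, library depth was estimated as about 8600000 to 14550000 fragments. All 34450 Ensembl identifiers matched GENCODE M21 (GRCm38).

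FPKM were tested as log2(FPKM + 0.5) in genes with a mean of at least 0.5 FPKM, with limma 3.58.1 in R 4.3.3 (eBayes with trend, two-sided, Benjamini-Hochberg over 14444 genes). The step was checked on simulated data. It recovered 30 of 100 genes given a difference of 2 on the log2 scale and 61 of 100 given 3. Of its 96 calls there, 5 were false. A gene that did not pass may therefore still differ between the groups. TMM factors were unweighted trimmed means of log ratios (30% of ratios and 5% of levels trimmed at each end). Alternatives were pseudocounts of 0.1 and 1, no filter or a minimum of 2 FPKM, TMM or quantile scaling, removal of the length trend, averaged hypoxia pairs, robust variance and each library left out. Scaling to the protein-coding share, TMM scaling without normoxia library 7, and 4 of the ratios and ratios without a pseudocount were chosen after seeing the data. Named were the 10 genes, up to 4 passing genes per list or else the 2 with the smallest p, and the 2 most similar genes of each member; some genes that this rule names are not reported here. Some genes outside that rule (Ccna2's call, Twist1, Krt8, Krt18, Zeb2os) were added after their values were seen. The members and lists were chosen with earlier results of these data known.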

Additional observations from a re-analysis of the deposited data

Results flagged for a closer look

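Of 20 groups of 4 libraries (10 genes in 2 groups), 3 held a library set far apart from the other 3 by the ratio of gap to range, above Dixon's critical value for 4 samples. Chance flags about 1 in 20 groups. Snai1 was at 3.87 FPKM in normoxia library 7, against 0.67 to 0.87 in the other normoxia libraries (ratio 0.938). Zeb2 was at 0.65 FPKM in normoxia library 5, against 2.24 to 2.46 in the others (0.878). Snai2 was at 1.07 FPKM in hypoxia library 1, against 0.48 to 0.58 in the others (0.831).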

How the results depend on the processing

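No paired analysis was possible because the groups share no replicate number. Members lower after hypoxia numbered 0 as deposited, 1 (Vim) with a minimum mean of 2 FPKM, with TMM scaling, with quantile normalization and without normoxia library 6, and 2 (Vim and Cdh6) with the length trend removed and with TMM scaling without normoxia library 5. Leaving out each library as deposited gave 0 to 1 lower members. No alternative gave a higher member. Over all 20 alternatives the difference of Vim was -3.06 to -2.04 (limma adjusted p between 0.0139 and 0.566) and that of Cdh6 -1.87 to -1.17 (limma adjusted p between 0.0217 and 0.921). Cdh16 turned positive with TMM scaling (0.0081), quantile normalization (0.16), length trend removal (0.032), scaling to the protein-coding share (0.12, chosen after seeing the data) and TMM scaling without library 5 (0.25), and without hypoxia library 3 (0.058), hypoxia library 4 (0.014) or normoxia library 7 (0.11; range -0.37 to 0.11 over single libraries left out). Snai1 turned positive without normoxia library 7, as deposited (0.11; range -0.52 to 0.11) and with TMM scaling (0.033, chosen after seeing the data). The call of S100a4 ended without the filter on mean FPKM (limma adjusted p = 0.39), with hypoxia libraries averaged in pairs (0.299), without hypoxia library 3 (0.112), hypoxia library 4 (0.0858), normoxia library 5 (0.103) or normoxia library 7 (0.214), and with TMM scaling without library 7 (0.107). The cause was not tested for any of these.

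Over all genes, 44 were higher and 87 lower as deposited. The counts were 127 and 164 with TMM scaling, 280 and 349 with quantile normalization, 200 and 251 with the length trend removed, 146 and 187 scaled to the protein-coding share, 594 and 572 with TMM scaling without library 5, 6 and 3 with TMM scaling without library 7, 22 and 5 with hypoxia libraries averaged in pairs, and 0 and 0 without the filter (limma, 2021 with unadjusted p under 0.05). A pseudocount of 1 gave 47 lower. Leaving out each library gave 11 to 67 higher (11 without normoxia library 7, 26 without hypoxia library 2 and 67 without hypoxia library 4) and 4 to 237 lower (155 without hypoxia 1, 44 without hypoxia 3, 54 without hypoxia 4, 50 without normoxia 5, 207 without normoxia 6, 4 without normoxia 7, 237 without normoxia 8). Cdh2 could not be tested without normoxia library 7, and 5 members could not with the minimum of 2 FPKM. Snai1 and Snai2 rested on few fragments, which limits their precision.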

Other observations

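Of the cadherins outside the 10 genes, Cdh3 passed with TMM scaling without normoxia library 5 (log2 difference -1.35, limma adjusted p = 0.00835), and Cdh5, the endothelial cadherin, stood at 3.08 to 4.55 FPKM after hypoxia and 1.32 to 7.08 FPKM after normoxia (log2 difference -0.09, limma adjusted p = 0.999).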
